A study of Mus musculus with 4 samples.

Results

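The microRNAs (miRNAs) of the Dlk1-Dio3 cluster were examined on gene arrays of adult mouse brain after ethanol exposure in the early postnatal period. Probe sets were taken when their annotation named at least 1 of 50 listed miRNA genes of the cluster, and 42 of the 35556 probe sets on the array did so. Of these, 40 named a single miRNA, whereas the Mir433 probe set also named 6430411K18Rik and the Mir410 probe set also named Mirg. No probe set was found under the symbols Mir770, Mir493, Mir299, Mir758, Mir654, Mir544, Mir453 or Mir496, although Mir299a and Mir496a were found. The 4 Affymetrix Mouse Gene 1.0 ST arrays, called ethanol 2, ethanol 4, control 1 and control 3 after their titles, each held whole-brain RNA pooled from 3 C57BL/6J males of different litters. Ethanol-exposed pups received 2.5 g/kg ethanol (20% in 0.15 M saline) under the skin on postnatal days 4 and 7, in 2 doses a day given 2 hours apart. Control pups received saline alone on the same days. According to the labels the mice were weaned on day 25 and killed on day 60, while the study's methods give an earlier weaning and a later collection. Exposed mice had control littermates of like weight in the control pools, without a record in the labels of which pools match. All pups, controls included, were separated from the dam during the injections. Each group therefore rests on 2 pooled samples, and the spread between them is not the spread between single mice.

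The labels are not in accord with each other. By title and source name, ethanol 4 is an ethanol sample and control 1 a saline sample, but the treatment entry gives the opposite for both. Ethanol 2 and control 3 are the only arrays on which all labels agree. Groups below follow the title and source name, and every direction drawn from them depends on that choice. Ethanol 2 also stands apart from the other arrays in the pituitary hormone transcripts Gh, Prl and Cga. All 6 listed pituitary genes were measured, and their summed linear signal was 317 on ethanol 2 and 7300 on ethanol 4, against 6760 on control 1 and 6590 on control 3. The growth hormone gene Gh had log2 signals of 6.53 and 12.26 on the ethanol arrays, against 12.24 and 12.19 on the control arrays. Lhb was also lowest on ethanol 2, by a smaller margin, at 5.47 against 6.23 on ethanol 4 and 6.15 and 5.96 on the control arrays. Pomc and Tshb did not set ethanol 2 apart from ethanol 4. Pomc averaged 5.49 on the ethanol arrays and 6.02 on the control arrays, and was lower past the limits used below in both forms of the data (-0.53 as deposited and -0.35 after quantile normalization, log2). The 5 neuronal markers had log2 signals of 10.73 to 13.33 on the ethanol arrays and 10.89 to 13.34 on the control arrays, and none was past the limits. The measured markers of astrocytes (3), oligodendrocytes (2), microglia (3) and blood (1) were not past them in either form. Of 3 choroid plexus markers, Kl was lower past the limits as deposited (-0.42) and not after normalization (-0.26), and Ttr (-0.15) and Folr1 (-0.24) were not past them. The part of these transcripts in the results below was not tested. In RNA of whole tissue, fewer cells of a type and less RNA per cell cannot be told apart.

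MiRNAs are short RNAs that pair through their seed, bases 2 to 8 from the 5′ end, with messenger RNAs and lower their translation or stability. The Dlk1-Dio3 domain is imprinted. The protein-coding genes Dlk1, Rtl1 and Dio3 are expressed from the paternal chromosome, and the noncoding transcripts Meg3, Rian and Mirg, together with the miRNAs, from the maternal chromosome. Many of the miRNAs are abundant in neurons, where several act on dendrites and synapses.

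All 42 miRNA genes lie on the plus strand of chromosome 12 in the RefSeq annotation (GRCm38.p6), from chr12:109571990 at the start of Mir673 to chr12:109743795 at the end of Mir410. A RefSeq hairpin was matched by gene ID for 41 of them. For Mir666 only mature sequences were used. The hairpins are 61 to 124 bases long (median 79), and their GC content runs from 29.1% to 62.0% (median 45.1%). The hairpins of Mir665, Mir134, Mir667 and Mir382 are shown because their probe sets carry some of the most negative and most positive differences discussed below. Capitals mark the annotated mature arms.
Mir665 hairpin, chr12:109586314-109586407, plus strand: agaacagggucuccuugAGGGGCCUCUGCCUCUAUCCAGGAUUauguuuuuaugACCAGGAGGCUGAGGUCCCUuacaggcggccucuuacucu
Mir134 hairpin, chr12:109734139-109734209, plus strand: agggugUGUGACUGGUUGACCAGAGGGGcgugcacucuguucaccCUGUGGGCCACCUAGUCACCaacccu
Mir667 hairpin, chr12:109720006-109720097, plus strand: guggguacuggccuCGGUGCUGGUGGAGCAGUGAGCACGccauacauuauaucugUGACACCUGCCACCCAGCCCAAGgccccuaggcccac
Mir382 hairpin, chr12:109733771-109733846, plus strand: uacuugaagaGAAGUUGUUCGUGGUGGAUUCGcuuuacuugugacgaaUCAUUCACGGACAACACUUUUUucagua

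In the annotation used the members encode 80 mature miRNAs with 77 distinct seeds, so that 74 seeds are held by 1 mature miRNA of the cluster and 3 by 2. Both arms were annotated for 38 members and a single arm for the others. The seed counts here cover annotated arms only. The following mature sequences are those of miRNAs on which the comparisons turn, with the seed in capitals.
miR-665-3p: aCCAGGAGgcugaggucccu
miR-134-5p: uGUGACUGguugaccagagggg
miR-127-3p: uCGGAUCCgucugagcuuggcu
miR-136-5p: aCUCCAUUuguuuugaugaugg
miR-667-3p: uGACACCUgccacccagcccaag
miR-679-5p: gGACUGUGaggugacucuuggu
miR-382-5p: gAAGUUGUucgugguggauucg
miR-485-3p: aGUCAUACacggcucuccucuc
Shared and near-shared seeds group other members. The 3p arms of Mir379 and Mir411 share AUGUAAC, the 5p arms of Mir376c and Mir376b share UGGAUAU, and the 5p arms of Mir494 and Mir410 share GGUUGUC. A further 22 pairs of seeds are 1 base apart. Counted from 1 at the 5′ end of the mature miRNA, the substitution is G2A between miR-379-5p and miR-411-5p, G4A between miR-300-3p and miR-381-3p, and A4G between miR-376b-3p and miR-376a-3p. These pairs are printed because signals of such relatives are set side by side below.
miR-379-5p: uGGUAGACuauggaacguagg
miR-411-5p: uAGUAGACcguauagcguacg
miR-379-3p: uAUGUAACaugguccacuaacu
miR-411-3p: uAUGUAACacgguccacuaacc
miR-300-3p: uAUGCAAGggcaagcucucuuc
miR-381-3p: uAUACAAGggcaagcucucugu
miR-376c-5p: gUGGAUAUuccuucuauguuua
miR-376b-5p: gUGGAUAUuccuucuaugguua
miR-376b-3p: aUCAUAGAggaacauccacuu
miR-376a-3p: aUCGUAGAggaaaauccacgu

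The array reads each miRNA through probes against its gene. Mature miRNA, hairpin precursor and longer primary transcript cannot be told apart in these signals. Signal over background was described with 1210 probe sets of olfactory and vomeronasal receptors, genes that brain tissue largely lacks. Their 95th percentile was 6.01 on ethanol 2 and 6.28 on ethanol 4, against 6.36 on control 1 and 6.28 on control 3 (log2 signal). Above it lay 29 and 24 of the 42 members on the ethanol arrays and 26 on each control array. On all 4 arrays 24 members were above it, 5 were above it on some arrays, and 13 on none. The 13 were Mir673, Mir431, Mir127, Mir434, Mir136, Mir370, Mir379, Mir411, Mir299a, Mir323, Mir543, Mir541 and Mir409. With 17 probe sets of miRNAs known from other tissues as the background, 16 members were above the 95th percentile on all 4 arrays, 7 on some and 19 on none. The mean signals of the members ran from 5.05 for Mir370 to 10.17 for Mir341. As probes differ in how strongly they bind, the order of signals is not an order of amounts.

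**Figure D1:**
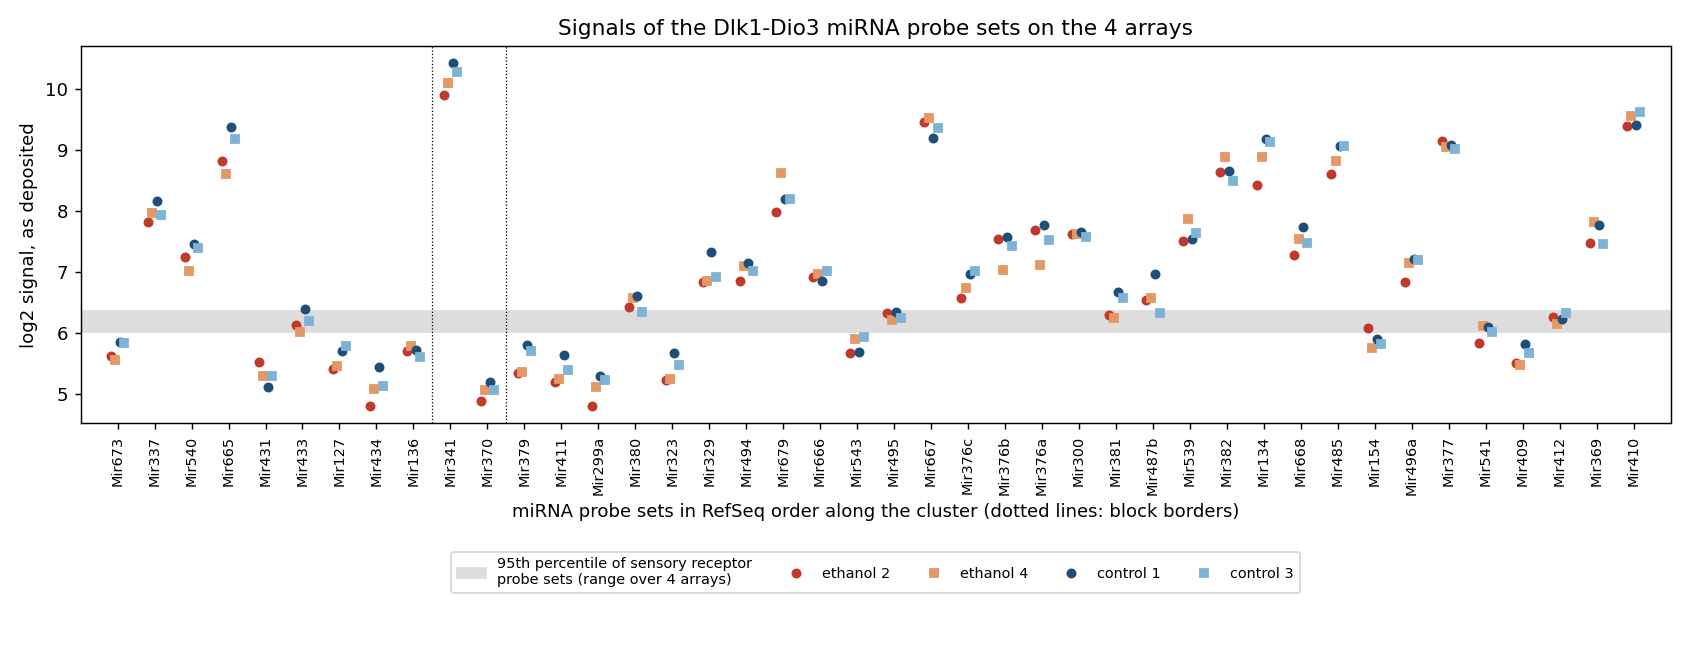
Log2 signal as deposited (vertical axis) of the 42 miRNA probe sets in RefSeq order along the cluster, with 1 point per array and dotted lines at the block borders. The grey band spans the 95th percentiles of receptor probe sets on the 4 arrays, 6.01 to 6.36, and 13 miRNAs lie at or below the percentile of their array on all 4.

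The comparison of ethanol-exposed with control brains asks whether early postnatal exposure left a difference in these miRNAs in the adult. As deposited, 10 of the 42 members (23.8%) were lower on the ethanol arrays past the study's limits, a 1.2-fold difference with an unadjusted p under 0.05 in limma. Of all probe sets, 17.9% were lower past the same limits. None of the members was higher past them, where the share of all probe sets was 2.23%. The 10 were Mir540, Mir665, Mir127, Mir341, Mir379, Mir323, Mir376c, Mir381, Mir134 and Mir485. Among 265 probe sets naming a single miRNA outside the cluster, 46 (17.4%) were lower and 2 were higher. No member had an adjusted p under 0.05 (limma, Benjamini-Hochberg over all probe sets, lowest 0.171). An unadjusted p under 0.05 in limma was found for 11 of the 42 members and for 7876 of all 35556 probe sets. The median difference, ethanol minus control, was -0.19 on the log2 scale for the members and -0.15 for all probe sets. With 2 arrays per group, the median standard error of a member's difference was 0.12.

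The array medians differed in the deposited table, at 6.33 on ethanol 2 and 6.38 on ethanol 4 against 6.61 on control 1 and 6.51 on control 3. After the 4 arrays were quantile-normalized, 1 member was lower past the limits, where 5.87% of all probe sets were, and 3 were higher, where 5.71% were. The lower member was Mir665. The higher members were Mir136, Mir667 and Mir382. The median difference of the members was then -0.02, against 0.00 for all probe sets. The smallest adjusted p among the members was 0.295 in limma. An unadjusted p under 0.05 in limma was found for 5 of the 42 members and for 4845 of all 35556 probe sets. Of the other miRNAs 9 (3.4%) were lower and 11 (4.15%) higher. Normalization turned the sign of 7 of the 42 differences.

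Both ethanol arrays lay below both control arrays for 19 members as deposited, where 52.7% of all probe sets had this order, and above them for 1 member, where 7.25% had. After quantile normalization the groups were apart with ethanol lower for 11 members (24.9% of all probe sets) and with ethanol higher for 10 (24% of all probe sets). Ethanol 2 was the lowest of the 4 arrays for 21 members and ethanol 4 for 11, while control 1 was the lowest for 3 and control 3 for 7. Ethanol 2 was the highest for 3 and ethanol 4 for 7, while control 1 was the highest for 25 and control 3 for 7. After normalization the highest array was ethanol 2 for 10 members, ethanol 4 for 14, control 1 for 9 and control 3 for 9. Replicates of a group differed by a median of 0.17 between the ethanol arrays and 0.14 between the control arrays as deposited, and by 0.17 and 0.10 after normalization.

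**Figure D2:**
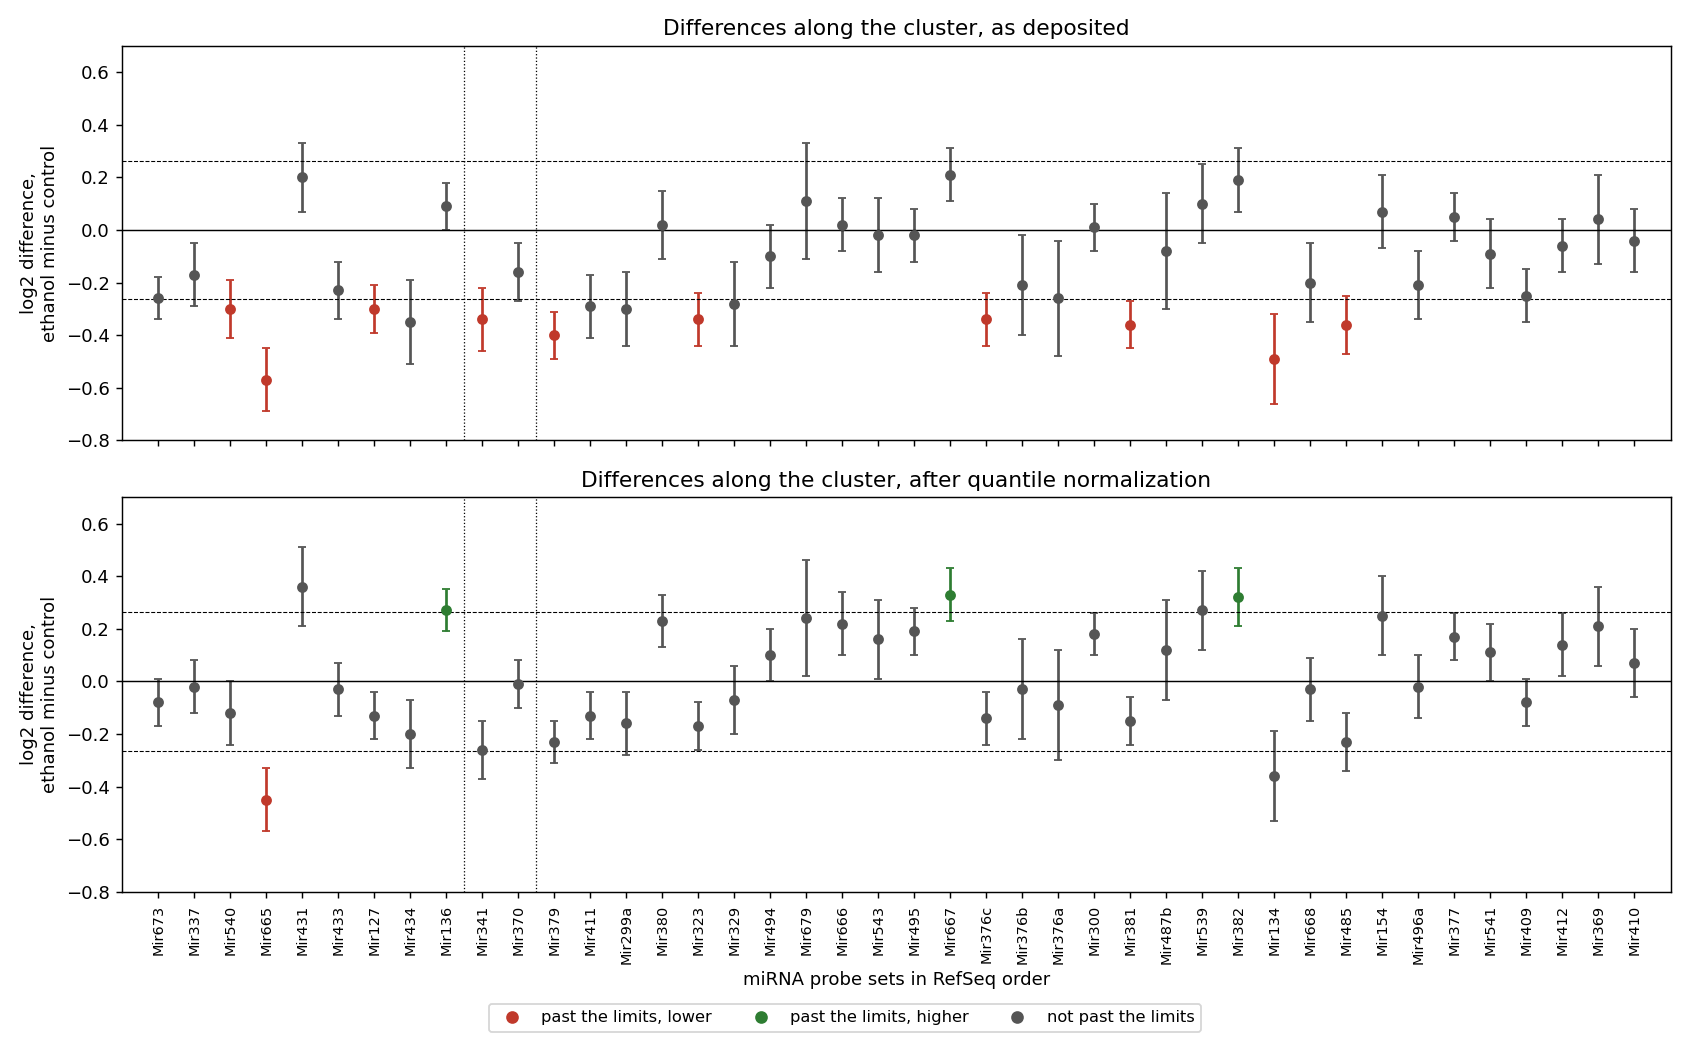
Log2 difference, ethanol minus control (vertical axes), of the 42 miRNA probe sets in RefSeq order, as deposited above and after quantile normalization below. Bars are limma's standard errors and dashed lines the 1.2-fold limit, with 10 members past the limits and lower above, and 1 lower and 3 higher below.

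The 9 members from Mir673 to Mir136 lie between Meg3 and Rian, inside the annotated span of Rtl1. The miRNAs of the Rtl1 antisense transcript pair fully with the paternal Rtl1 messenger RNA and guide its cleavage in the mouse. Of the 9, 3 were lower past the limits as deposited, and 1 was lower and 1 higher after normalization. With so few members these counts are given only as a description, beside 17.9% of all probe sets lower as deposited, and 5.87% lower and 5.71% higher after normalization. The block's median difference was -0.26 as deposited and -0.08 after normalization. Only Mir337, Mir540 and Mir665 were above the receptor percentile on all 4 arrays.

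Mir665 had log2 signals of 8.81 and 8.61 on the ethanol arrays, against 9.37 and 9.18 on the control arrays. The groups did not overlap, and the difference of -0.57 (SE 0.12, adjusted p = 0.171 in limma) was the most negative of the 42. After quantile normalization its signals were 8.88 and 8.67 on the ethanol arrays, against 9.29 and 9.14 on the control arrays. The difference became -0.45 (SE 0.12, adjusted p = 0.295 in limma), a fold of 0.734, and was the only one past the limits and lower in both forms. Mir540, whose hairpin lies just upstream of Mir665, had 7.24 and 7.01 on the ethanol arrays, against 7.45 and 7.40 on the control arrays. Its difference of -0.30 (SE 0.11) shrank to -0.12 (SE 0.12) after normalization, where the groups overlapped.

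Mir127, an Rtl1-directed miRNA, had 5.41 and 5.46 on the ethanol arrays, against 5.70 and 5.78 on the control arrays. The difference was -0.30 (SE 0.09) as deposited and -0.13 (SE 0.09) after normalization, and the groups were apart in both forms. Mir136, another miRNA directed at Rtl1, had 5.71 and 5.79 on the ethanol arrays, against 5.72 and 5.61 on the control arrays. The groups overlapped as deposited, at a difference of 0.09 (SE 0.09). After normalization Mir136 had 5.84 and 5.86 on the ethanol arrays, against 5.59 and 5.56 on the control arrays, and its difference of 0.27 (SE 0.08) was past the limits. Neither gene was above the receptor percentile on any array.

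Mir431, also antisense to Rtl1, had 5.52 and 5.29 on the ethanol arrays, against 5.11 and 5.29 on the control arrays. Its difference of 0.20 (SE 0.13) rested on ethanol 2 being high and control 1 low, and it was not past the limits in either form (0.36, SE 0.15, after normalization). Between Mir665 and Mir431, which are neighbours along the cluster, the normalized difference stepped by 0.81. This was the widest step between neighbours, where the median step was 0.19. Mir431, unlike Mir665, was above the receptor percentile on no array. Mir433 differed by -0.23 and Mir434 by -0.35 as deposited, and by -0.03 and -0.20 after normalization, neither past the limits. Mir673 had a difference of -0.26 as deposited, short of the 1.2-fold limit (0.263), and Mir337 had one of -0.17. After normalization these were -0.08 and -0.02, and the groups of each of these miRNAs overlapped. Mir673 and Mir434 were above the receptor percentile on no array.

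Within the Rian transcript lie Mir341 and Mir370. Mir341 had 9.90 and 10.10 on the ethanol arrays, against 10.42 and 10.27 on the control arrays. Both ethanol arrays were lower than both control arrays, with a difference of -0.34 (SE 0.12) as deposited and -0.26 (SE 0.11) after normalization, where it was no longer past the limits. Mir370 was at 4.88 and 5.06 on the ethanol arrays, against 5.20 and 5.06 on the control arrays, and its normalized difference was -0.01.

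The remaining 31 members run from Mir379 to Mir410. This miRNA cluster is induced by neuronal activity through the transcription factor Mef2 in rat neurons. Of the 31, 6 were lower past the limits as deposited and none was higher, while none was lower and 2 were higher after normalization. Both counts are near the shares of all probe sets, 17.9% lower as deposited and 5.71% higher after normalization. The median difference was -0.09 as deposited and 0.10 after normalization. On all 4 arrays 20 were above the receptor percentile.

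Mir134 represses Limk1 in the dendrites of rat hippocampal neurons and limits the size of spines. Its signals were 8.43 and 8.89 on the ethanol arrays, against 9.17 and 9.13 on the control arrays. Both ethanol arrays were below both control arrays, ethanol 2 by the wider margin, and the difference was -0.49 (SE 0.17, adjusted p = 0.213 in limma). After quantile normalization it had 8.50 and 8.95 on the ethanol arrays, against 9.08 and 9.10 on the control arrays, and the difference of -0.36 (SE 0.17) was not past the limits. Without ethanol 2, the array low in pituitary transcripts, the difference was -0.26 as deposited and -0.14 after normalization. Without ethanol 4 it was -0.72 as deposited. Each of these fits leaves 1 ethanol array.

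Mir485, from which comes a miRNA that targets the synaptic vesicle protein gene Sv2a in cultured hippocampal neurons, had 8.60 and 8.82 on the ethanol arrays, against 9.07 on each control array. The difference was -0.36 (SE 0.11) as deposited and -0.23 (SE 0.11) after normalization, with the groups apart in both forms. Mir668, which lies between Mir134 and Mir485, had overlapping groups, with 7.28 and 7.54 on the ethanol arrays against 7.74 and 7.48 on the control arrays. Mir382, next to Mir134 on its other side, had 8.64 and 8.88 on the ethanol arrays, against 8.65 and 8.49 on the control arrays. Its difference was 0.19 (SE 0.12) as deposited with overlapping groups. After normalization it was 0.32 (SE 0.11), past the limits and with ethanol higher on both arrays. The adjacent Mir134 and Mir382 had differences of opposite sign, but in neither form were both past the limits. Whether their differences differ from each other was not tested.

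Mir667 was the only member for which both ethanol arrays lay above both control arrays as deposited. Its signals were 9.45 and 9.52 on the ethanol arrays, against 9.19 and 9.35 on the control arrays, a difference of 0.21 (SE 0.10, adjusted p = 0.275 in limma) and the most positive of the 42. After normalization the difference was 0.33 (SE 0.10, adjusted p = 0.33 in limma) and past the limits. Mir679 had 7.99 and 8.62 on the ethanol arrays, against 8.20 on each control array. The ethanol arrays thus fell on either side of the controls, and the difference was 0.11 (SE 0.22). Without ethanol 2 it was 0.42, and without ethanol 4 it was -0.20. The ethanol group in these fits was ethanol 4 alone and ethanol 2 alone, in that order. Mir495 had 6.33 and 6.22 on the ethanol arrays, against 6.34 and 6.24 on the control arrays, and Mir369 had 7.48 and 7.82 on the ethanol arrays, against 7.77 and 7.45 on the control arrays. Their groups overlapped as deposited, with differences of -0.02 and 0.04.

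Relatives in sequence were then set side by side. Mir379 had 5.35 and 5.36 on the ethanol arrays, against 5.80 and 5.71 on the control arrays, a difference of -0.40 (SE 0.09, adjusted p = 0.171 in limma). Mir411, which shares its 3p seed, had 5.20 and 5.25 on the ethanol arrays, against 5.64 and 5.39 on the control arrays, at -0.29 (SE 0.12). For both, the ethanol arrays lay below the controls in each form of the data, and neither passed the limits after normalization. Their signals were under the receptor percentile on every array.

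Mir381 had 6.29 and 6.24 on the ethanol arrays, against 6.67 and 6.57 on the control arrays, a difference of -0.36 (SE 0.09) as deposited and, no longer past the limits, -0.15 (SE 0.09) after normalization. Mir300, whose hairpin is 73.8% identical to that of Mir381, had 7.62 on each ethanol array, against 7.65 and 7.57 on the control arrays, at 0.01 (SE 0.09). After normalization Mir300 was at 0.18 (SE 0.08), with ethanol higher on both arrays and not past the limits. Thus 2 members whose 3p seeds differ at 1 base did not have the same order of arrays. Whether their differences differ from each other was not tested.

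The Mir376 family, whose transcripts are known to undergo A-to-I editing within the seed in mouse and human brain, has 3 members on the array, whose hairpins are shown with their annotated arms in capitals.
Mir376c hairpin, chr12:109722718-109722803, plus strand: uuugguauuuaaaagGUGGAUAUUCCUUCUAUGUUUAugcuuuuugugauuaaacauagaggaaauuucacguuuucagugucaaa
Mir376b hairpin, chr12:109723458-109723539, plus strand: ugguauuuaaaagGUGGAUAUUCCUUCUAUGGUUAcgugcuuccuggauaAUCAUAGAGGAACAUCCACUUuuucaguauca
Mir376a hairpin, chr12:109723781-109723848, plus strand: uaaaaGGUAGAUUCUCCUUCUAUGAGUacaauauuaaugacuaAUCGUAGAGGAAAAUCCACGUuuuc
The Mir376c and Mir376b hairpins are 80.7% identical, Mir376b and Mir376a 63.4%, and Mir376c and Mir376a 60.5%. Mir376c had 6.57 and 6.73 on the ethanol arrays, against 6.97 and 7.01 on the control arrays, a difference of -0.34 (SE 0.10) as deposited and, no longer past the limits, -0.14 (SE 0.10) after normalization. Mir376b had 7.54 and 7.03 on the ethanol arrays, against 7.57 and 7.42 on the control arrays. Mir376a had 7.68 and 7.11 on the ethanol arrays, against 7.77 and 7.53 on the control arrays. In Mir376b and Mir376a it was ethanol 4 that was low while ethanol 2 lay within the controls, and in Mir376c ethanol 2 was the lowest array. Probes for such closely related hairpins can share signal.

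Of the members not yet given, Mir323 was lower past the limits as deposited, with 5.23 and 5.25 on the ethanol arrays against 5.67 and 5.48 on the control arrays. Its difference was -0.34 (SE 0.10), and after normalization -0.17 (SE 0.09). The others had deposited differences between -0.30 (Mir299a) and 0.10 (Mir539), none past the limits in either form. Among the 24 members above the receptor percentile on all 4 arrays, 6 were lower past the limits as deposited, and after normalization 1 was lower and 2 were higher. Among the 13 that were above it on no array, 3 were lower as deposited and 1 was higher after normalization. Over all probe sets the shares were 17.9% lower as deposited, and 5.87% lower and 5.71% higher after normalization. Across the members, Pearson's r between mean signal and difference was 0.07 as deposited and -0.03 after normalization, and between hairpin GC content and difference -0.16 and -0.21 (n = 42 and 41 probe sets of the same 4 arrays).

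**Figure D3:**
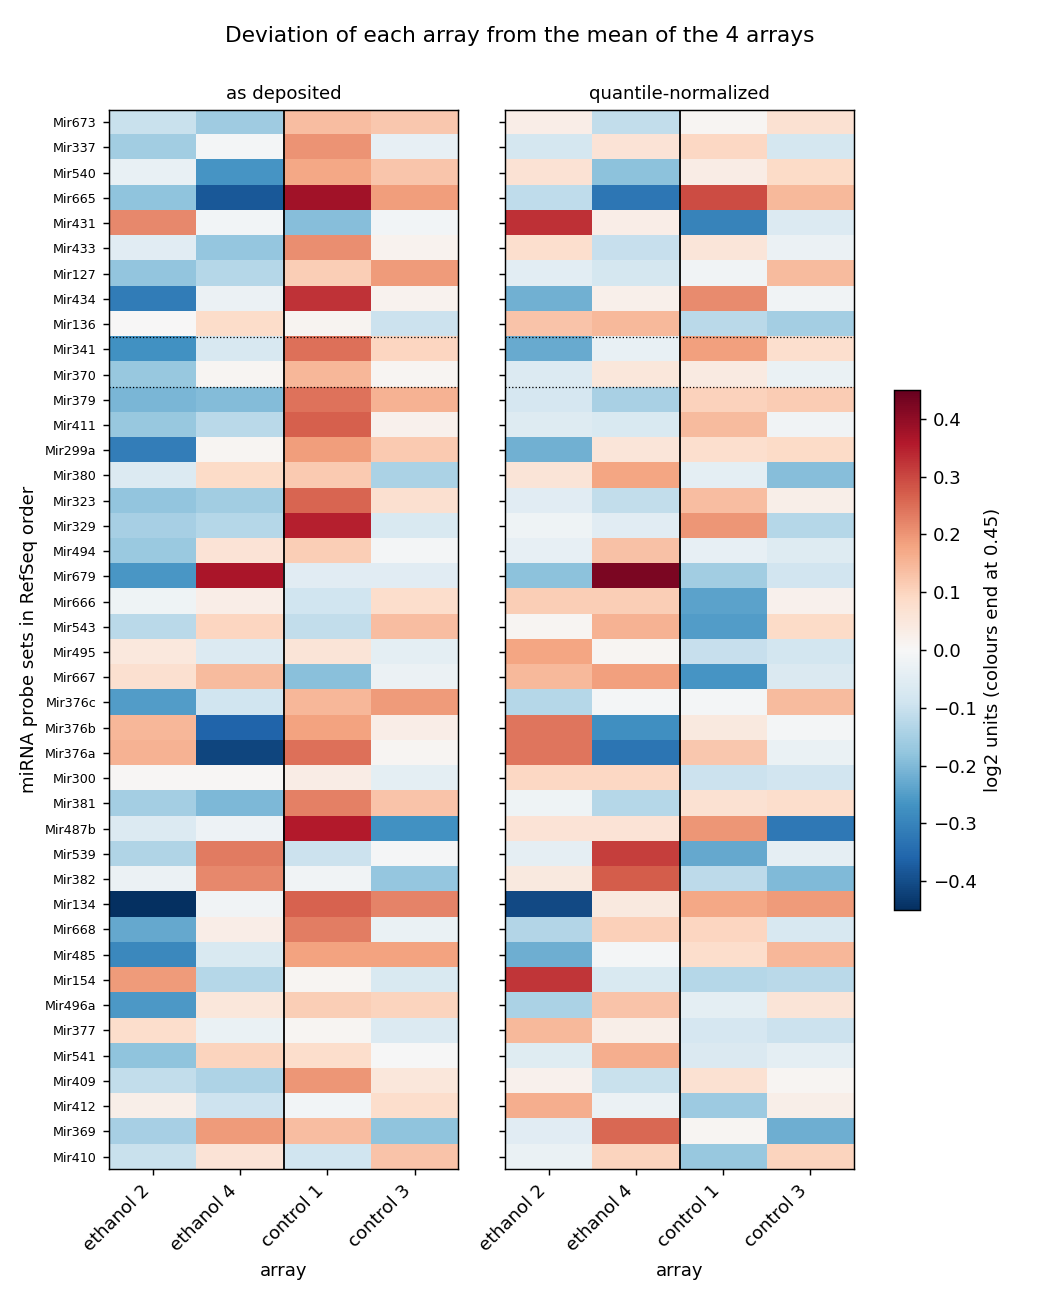
Deviation of each array from the mean of the 4 arrays (colour, log2 units, ending at 0.45) for the 42 miRNA probe sets in RefSeq order, as deposited on the left and quantile-normalized on the right. As deposited, ethanol 2 is the lowest array for 21 members and control 1 the highest for 25, and after normalization ethanol 2 is the lowest for 11 and control 1 the highest for 9.

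The long transcripts of the domain were read from 6 probe sets, and 2 of them, Begain and Meg3, were lower past the limits in both forms, where 17.9% of all probe sets were lower as deposited and 5.87% after normalization. Neither had an adjusted p under 0.05 in limma. Dlk1, a paternally expressed membrane protein gene, had 8.49 and 9.07 on the ethanol arrays, against 9.26 and 9.12 on the control arrays (-0.41, SE 0.21, as deposited), and its groups overlapped after normalization (-0.29). Meg3, whose transcription unit precedes the miRNAs, had 11.72 and 11.70 on the ethanol arrays, against 12.10 and 11.92 on the control arrays, at -0.30 (SE 0.10, adjusted p = 0.203 in limma) as deposited and -0.29 (SE 0.09, adjusted p = 0.311 in limma) after normalization. Rian, the host of Mir341 and Mir370, had 7.96 and 8.34 on the ethanol arrays, against 8.60 and 8.36 on the control arrays (-0.33, SE 0.17). Rtl1, the target of the antisense miRNAs, averaged 4.99 on the ethanol arrays and 5.16 on the control arrays (-0.17, SE 0.10). All its signals were under the receptor percentile of their array, and its groups overlapped after normalization (-0.03). Dlk1, Rian and Rtl1 were not past the limits. Mirg had no probe set of its own, and the Mir410 probe set that also names it was at 9.39 and 9.55 on the ethanol arrays, against 9.40 and 9.62 on the control arrays.

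**Figure D4:**
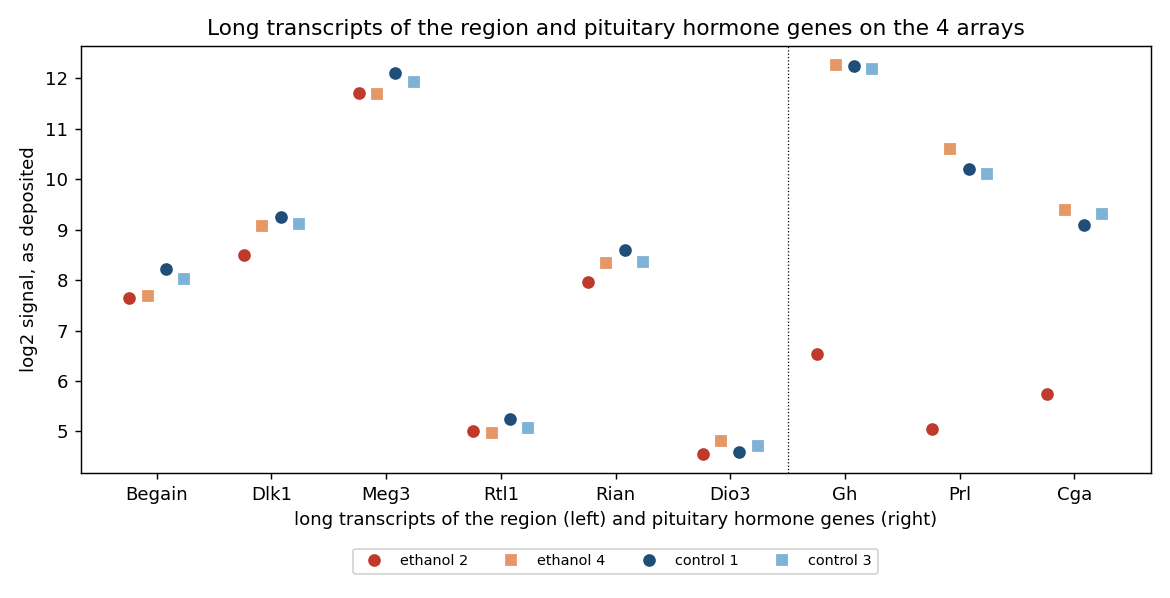
Log2 signal as deposited (vertical axis) of 6 long transcripts of the domain and, right of the dotted line, of the pituitary hormone genes Gh, Prl and Cga, with 1 point per array. As deposited, Begain, Dlk1, Meg3, Rtl1 and Rian are lower on both ethanol arrays than on both control arrays. Of all probe sets, 52.7% had this order, and after quantile normalization only Begain and Meg3 of these kept it. Dio3 has overlapping groups, at 4.56 to 4.81, and is under the receptor percentile on every array. Ethanol 2 is far below the other arrays in Gh, at 6.53 against 12.26 on ethanol 4 and 12.24 and 12.19 on the control arrays.

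The promoter of Meg3 is shown as that of the first maternally expressed noncoding transcript of the domain. The RefSeq window of 300 bases that spans the gene start is given from chr12:109540746-109541045 on the plus strand (GRCm38.p6), and capitals mark a cAMP response element.
Meg3 promoter: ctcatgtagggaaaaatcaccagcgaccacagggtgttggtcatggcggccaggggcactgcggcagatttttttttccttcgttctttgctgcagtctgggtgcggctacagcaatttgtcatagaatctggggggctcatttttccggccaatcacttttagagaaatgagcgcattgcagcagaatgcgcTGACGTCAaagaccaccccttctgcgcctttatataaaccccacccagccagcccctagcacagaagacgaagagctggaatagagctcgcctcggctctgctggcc
The palindromic letters TGACGTCA, searched on both strands, occur 1 time in this window, beginning 57 bases before the gene start, and in 588 of 32851 RefSeq promoters (1.79%). TATAAA occurs 2 times, on opposite strands and overlapping, and is found in 13.6% of promoters. Neither was found in the windows of a second Meg3 start, Rian or Mirg.

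Published or predicted targets of the cluster's miRNAs were read from 5 genes. Limk1, the target of miR-134, had 8.56 and 8.45 on the ethanol arrays, against 8.77 and 8.54 on the control arrays, with overlapping groups (-0.15, SE 0.12, as deposited). Nmnat1, an enzyme of NAD synthesis, had 7.06 and 6.95 on the ethanol arrays, against 7.26 and 7.35 on the control arrays. It was lower past the limits as deposited (-0.30, SE 0.09) and not after normalization (-0.11). Pum2, a translational repressor, Sv2a and Rtl1 were not past the limits in either form.

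Grouped instead by the treatment entry of the labels, none of the 42 members was lower past the limits, and the median difference was 0.02 on the log2 scale. No share of all probe sets is given for this grouping, so its counts do not tell the members from the rest of the array. The sign turned in 24 of the 42, among them Mir665 (0.20) and Mir379 (0.04), while Mir134 was at -0.21. On ethanol 2 and control 3, whose labels do not conflict, Mir665 was lower by 0.37 on ethanol 2 and Mir134 by 0.70, with no replicate. The median difference of the members between this pair of arrays was -0.16. These values are as deposited, where the medians of all probe sets were 6.33 on ethanol 2 and 6.51 on control 3. After quantile normalization Mir665 was at 8.88 on ethanol 2 and 9.14 on control 3, and Mir134 at 8.50 and 9.10.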

How the data were processed

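RNA from 4 pools of whole brain, 3 males each, was hybridized to Affymetrix Mouse Gene 1.0 ST arrays after total RNA cleanup on RNeasy columns. The authors summarized probes to gene level in Partek (version 6.6 in the submitters' processing notes, another version in the methods) by the RMA algorithm with GC adjustment and quantile normalization, and deposited log2 values. Array medians were nonetheless unequal, so each result was computed from the deposited table and from the table with the 4 arrays quantile-normalized once more. Being arrays, they hold no read depth, and their number limits the precision.

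Probe sets were named from GEO's platform annotation, in which 21797 of 35556 name 1 gene, 1613 several and 12146 none. No genome build was stated for that annotation, so coordinates and sequences are those of RefSeq (GRCm38.p6). All probe sets were fitted with limma (version 3.58.1, R 4.3.3), two-sided, ethanol minus control, with 2 residual and 2.57 prior degrees of freedom, with Benjamini-Hochberg adjustment of p-values across the whole table. Limits were 1.2-fold and an unadjusted p of 0.05, after the study's methods. The procedure was tested on simulated data.

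Named miRNAs are those past the limits in either form, the 3 highest and 3 lowest differences as deposited, Mir134, and Mir679, Mir369, Mir431 and Mir495. Other members are named for their position or sequence, chosen after their values were seen. The members and lists were chosen with earlier results of these data known. Alternatives were quantile normalization, centred arrays, the treatment entry, the pair with agreeing labels, an intensity trend, a minimum mean log2 of 5, probe sets naming 1 miRNA alone, identical probe sets counted once, the methods' test, a 1.5-fold limit and each array left out. Sequences were handled with Python 3.11.15 and Biopython 1.88.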

Additional observations from a re-analysis of the deposited data

How the results depend on the processing

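As deposited, 10 members were lower past the limits, where 17.9% of all probe sets were. None was higher, where 2.23% were, and the median log2 difference was -0.19. Quantile normalization gave 1 lower, 3 higher and a median of -0.02, with Mir495 turned to 0.19, where 5.87% and 5.71% of all probe sets were lower and higher. Centring the arrays on their medians gave a median of 0.03, with Mir495 at 0.20. With centred arrays 1 member was lower and 4 were higher, counts given without a share of all probe sets and only as a description. They therefore do not tell the members from the rest of the array. Grouping by the treatment entry gave 0 lower and a median of 0.02, and turned Mir540 to 0.14, Mir665 to 0.20, Mir379 to 0.04, Mir323 to 0.09, Mir679 to -0.31, Mir495 to 0.10, Mir667 to -0.11, Mir381 to 0.08, Mir382 to -0.04 and Mir369 to -0.01. The same grouping after quantile normalization gave 0 lower and a median of 0.00. Both counts under this grouping are given without a share of all probe sets and only as a description. The methods' test left 3 lower, Mir127, Mir379 and Mir381 (7.14% of members, 8.11% of all probe sets), and none after Benjamini-Hochberg adjustment. A 1.5-fold limit left 0 lower, also given without a share of all probe sets.

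When each array was dropped in turn, 1 array was left in a group, and the fit assumes that it varies like the others. Only differences are given for these fits, and calls in them are not counted. The median ran from -0.27 to -0.10. Mir679 ran from -0.20 to 0.42, Mir495 from -0.07 to 0.04 and Mir369 from -0.13 to 0.21. Mir665 ran from -0.67 to -0.46 and Mir379 from -0.44 to -0.36. Among the 10 members lower past the limits with every array kept, Mir134 ran from -0.72 to -0.26 and Mir540 from -0.41 to -0.19. Not all of the 10 calls hold when an array is dropped. An alternative chosen after seeing the data was quantile normalization without ethanol 2, the array low in pituitary transcripts. It gave a median of 0.05 and Mir495 at 0.10. The treatment entry with normalization was also chosen after seeing the data. The causes were not tested. An intensity trend, a minimum mean log2 of 5, identical probe sets counted once and probe sets naming 1 miRNA alone kept the counts within 1.5 times.

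No paired analysis was possible because the ethanol arrays (2 and 4) and control arrays (1 and 3) share no replicate number, and the labels, which state that littermates were split between the groups, do not say which pools match. The limits of these data are 2 pools per group, conflicting labels, 13 members under the receptor percentile on every array, and probes that do not separate mature from precursor RNA.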
